A study of Homo sapiens with 24 samples.

Results

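The 10 genes described here belong to the integrated stress response and the unfolded protein response: ATF4, ATF3, DDIT3, XBP1, TRIB3, CHAC1, ASNS, DDIT4, PPP1R15A and HSPA5. They were chosen by name, as listed genes, with earlier results of these data known. Counts and medians of the members set beside all genes therefore describe them and are not a test. All 10 are among the 57736 genes of the count table and passed the filter on low counts. Their mRNA was measured by QuantSeq, which makes a read from the 3′ end of each polyadenylated transcript, in U87-T cells, a line made from U87 glioblastoma cells with a TERT transgene that every group carries. WT and DAXX_KO cells made up a DAXX series, and WT and ATRX_KO cells an ATRX series, each in control and with etoposide. The sample titles call the control cells untreated, and do not say whether the solvent of etoposide was added to them. There were 3 libraries in each of the 8 groups, 24 libraries in all. Each series had WT libraries of its own, and whether the WT cells of both were the same line was not stated. WT were control U87-T cells that had received the empty Cas9 vector, and each knockout line was 1 clone that had survived the loss of the gene, so that the knockout and the clone cannot be told apart. The study describes both clones as having acquired features of alternative lengthening of telomeres. Knockout against WT therefore also compares cells with and without these features. Etoposide poisons topoisomerase II and breaks DNA, and its dose and duration for these libraries were not given in the sources used here. The study describes its experiments as biologically replicated, and the labels number the libraries without saying whether each came from a culture of its own, so p-values measure the spread between these libraries.

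In the integrated stress response, kinases that sense misfolded protein, amino acid shortage, haem shortage or viral RNA phosphorylate the initiation factor eIF2, which slows general translation and lets ATF4 mRNA be translated. ATF4 then induces ATF3, DDIT3, TRIB3, CHAC1, ASNS and DDIT4, and PPP1R15A recruits a phosphatase that removes the phosphate again. The unfolded protein response shares this arm and adds ATF6, which is cleaved into a factor that induces HSPA5, and IRE1, which splices XBP1 mRNA. Counts per gene measure mRNA level, and show neither the translation of ATF4 nor the splicing of XBP1. ATF3, DDIT4 and PPP1R15A are also known to be induced by DNA damage.

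Library totals ran from 6928950 to 13298557 counts, and the members had 28 to 38741 counts in a library, so that none was at the floor of 3 counts in any of them. In control cells DAXX mRNA was 34.5 ± 1.27 CPM (the count relative to the TMM-scaled library total, mean ± SD, n = 3) in WT and 5.93 ± 1.08 CPM in DAXX_KO, and ATRX mRNA was 189.7 ± 5.08 CPM in WT and 79.4 ± 5.74 CPM in ATRX_KO. Groups follow the sample titles, since 1 tag of the DAXX_KO libraries gives their genotype as an ATRX knockout. Of 8 markers of glioblastoma and glial cells, VIM, CD44 and NES were present in all libraries, GFAP, OLIG2, SOX2 and CHI3L1 reached at most 7.81 CPM, and S100B was at 0 in all 24 libraries. The summed level of 4 markers of leukocytes, epithelium and liver (PTPRC, EPCAM, CDH1 and ALB) was at most 4.19 CPM in any library. The summed level of the 8 markers was 6471 to 7214 CPM in control WT, 4315 to 5982 CPM in the control knockouts and 1603 to 3144 CPM with etoposide, and the part of this difference in the results for the members was not tested. VIM and CD44, with medians of 3182 and 487 CPM over the 24 libraries, made up most of this sum, which thus says little of the other markers. In bulk RNA, fewer cells with a transcript and less of it per cell cannot be told apart.

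The members' promoters were read for the sequence elements through which this pathway is known to act. RefSeq windows from 250 bases before to 50 bases after the start were matched by symbol for all 10 genes, on GRCh38.p14, and both strands were searched for 4 motifs. The core of the C/EBP-ATF response element, TGATGNAA, which ATF4 binds, was found in a window of ATF3, CHAC1 and ASNS, and is in 3.617% of the 35116 windows of all genes and in a window of 4.46% of 27305 genes, the share to set beside members, several of which have more than 1 window. The ER stress response element, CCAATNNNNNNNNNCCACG, which cleaved ATF6 binds, was found in HSPA5 and XBP1, and is in 0.077% of windows and 0.0916% of genes. The cAMP response element, TGACGTCA, was found in PPP1R15A, and is in 1.848% of windows and 2.25% of genes. TGACGTGG, in 0.729% of windows and 0.927% of genes, was found in no member, and the windows of ATF4, DDIT3, DDIT4 and TRIB3 held none of the 4. No match overlapped another. The 250 bases before the start of the 6 genes with a match are shown 5′ to 3′ along the gene. These 6 genes had more mRNA after etoposide in the WT cells of each series, as did ATF4, DDIT3, DDIT4 and TRIB3. Since all 10 rose, a rise could not separate genes with a match from those without, and a part of the motifs in it was not tested. Elements outside the windows were not searched for. Capitals mark the fixed bases of the match, which in CHAC1 lies on the strand opposite to the gene.
ATF3, chr1:212565157-212565406, plus strand: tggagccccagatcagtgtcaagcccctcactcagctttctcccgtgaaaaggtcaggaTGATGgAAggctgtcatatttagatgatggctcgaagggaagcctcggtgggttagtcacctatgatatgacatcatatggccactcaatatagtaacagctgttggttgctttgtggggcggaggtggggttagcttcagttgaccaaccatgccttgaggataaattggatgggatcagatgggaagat
CHAC1, chr15:40953221-40953470, plus strand: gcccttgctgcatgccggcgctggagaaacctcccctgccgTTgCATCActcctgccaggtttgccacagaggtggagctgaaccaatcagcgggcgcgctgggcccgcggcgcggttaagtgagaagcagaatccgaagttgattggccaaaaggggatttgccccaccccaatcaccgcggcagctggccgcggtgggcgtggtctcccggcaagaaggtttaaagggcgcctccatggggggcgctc
ASNS, chr7:97872409-97872658, minus strand: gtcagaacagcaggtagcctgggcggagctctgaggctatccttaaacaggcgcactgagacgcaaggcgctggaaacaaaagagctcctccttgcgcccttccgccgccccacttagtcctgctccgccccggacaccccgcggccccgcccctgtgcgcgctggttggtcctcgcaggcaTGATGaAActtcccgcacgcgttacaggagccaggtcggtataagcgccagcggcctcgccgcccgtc
HSPA5, chr9:125241344-125241593, minus strand: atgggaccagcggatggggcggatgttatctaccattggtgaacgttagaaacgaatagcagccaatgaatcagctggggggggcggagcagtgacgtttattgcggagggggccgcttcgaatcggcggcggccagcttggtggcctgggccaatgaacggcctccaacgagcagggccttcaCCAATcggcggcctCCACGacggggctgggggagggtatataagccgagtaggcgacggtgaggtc
XBP1, chr22:28800570-28800819, minus strand: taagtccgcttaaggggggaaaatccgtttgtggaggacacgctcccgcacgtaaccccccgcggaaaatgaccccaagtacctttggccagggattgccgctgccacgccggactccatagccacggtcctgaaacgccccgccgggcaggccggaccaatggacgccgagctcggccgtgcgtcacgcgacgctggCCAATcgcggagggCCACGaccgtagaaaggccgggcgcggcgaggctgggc
PPP1R15A, chr19:48872171-48872420, plus strand: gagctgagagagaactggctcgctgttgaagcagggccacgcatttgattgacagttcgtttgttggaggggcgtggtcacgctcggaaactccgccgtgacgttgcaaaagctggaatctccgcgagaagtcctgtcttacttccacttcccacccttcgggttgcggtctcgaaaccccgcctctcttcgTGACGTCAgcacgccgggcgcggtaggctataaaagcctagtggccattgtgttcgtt

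A match describes these letters and is not evidence that a factor was bound. On GRCh37 the genes lie at chr1:212738676-212794119 (ATF3), chr15:41245160-41248710 (CHAC1), chr7:97480989-97501854 (ASNS), chr9:127997132-128003661 (HSPA5), chr22:29190543-29196585 (XBP1), chr19:49375469-49379316 (PPP1R15A), chr22:39915700-39918688 (ATF4), chr10:74033678-74035794 (DDIT4), chr20:343479-378203 (TRIB3) and chr12:57910371-57915520 (DDIT3). Measured from the start, with negative positions upstream, the match lay at -191 to -184 in ATF3, -209 to -202 in CHAC1, -68 to -61 in ASNS, -66 to -48 in HSPA5, -52 to -34 in XBP1 and -58 to -51 in PPP1R15A.

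Etoposide against control in WT cells asked how the pathway answered DNA damage with DAXX and ATRX present. All 10 members rose in WT of both series (10 of 10 at FDR 5% in each). Of all genes, 60.2% in the DAXX and 61.5% in the ATRX series were called in either direction, 29.6% and 31.7% higher and 30.6% and 29.8% lower. The median log2 fold change of the members was 1.63 in the DAXX and 1.68 in the ATRX series, beside 0.02 and 0.07 over all genes tested. The size of the response ran from 2.23-fold for ASNS to 27.5-fold for DDIT3 in the DAXX series, and from 1.53-fold to 30.0-fold for the same genes in the ATRX series. For each member all 3 libraries with etoposide lay above all 3 control libraries, which held for 64% and 67.8% of all genes, counting both directions.

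**Figure D1:**
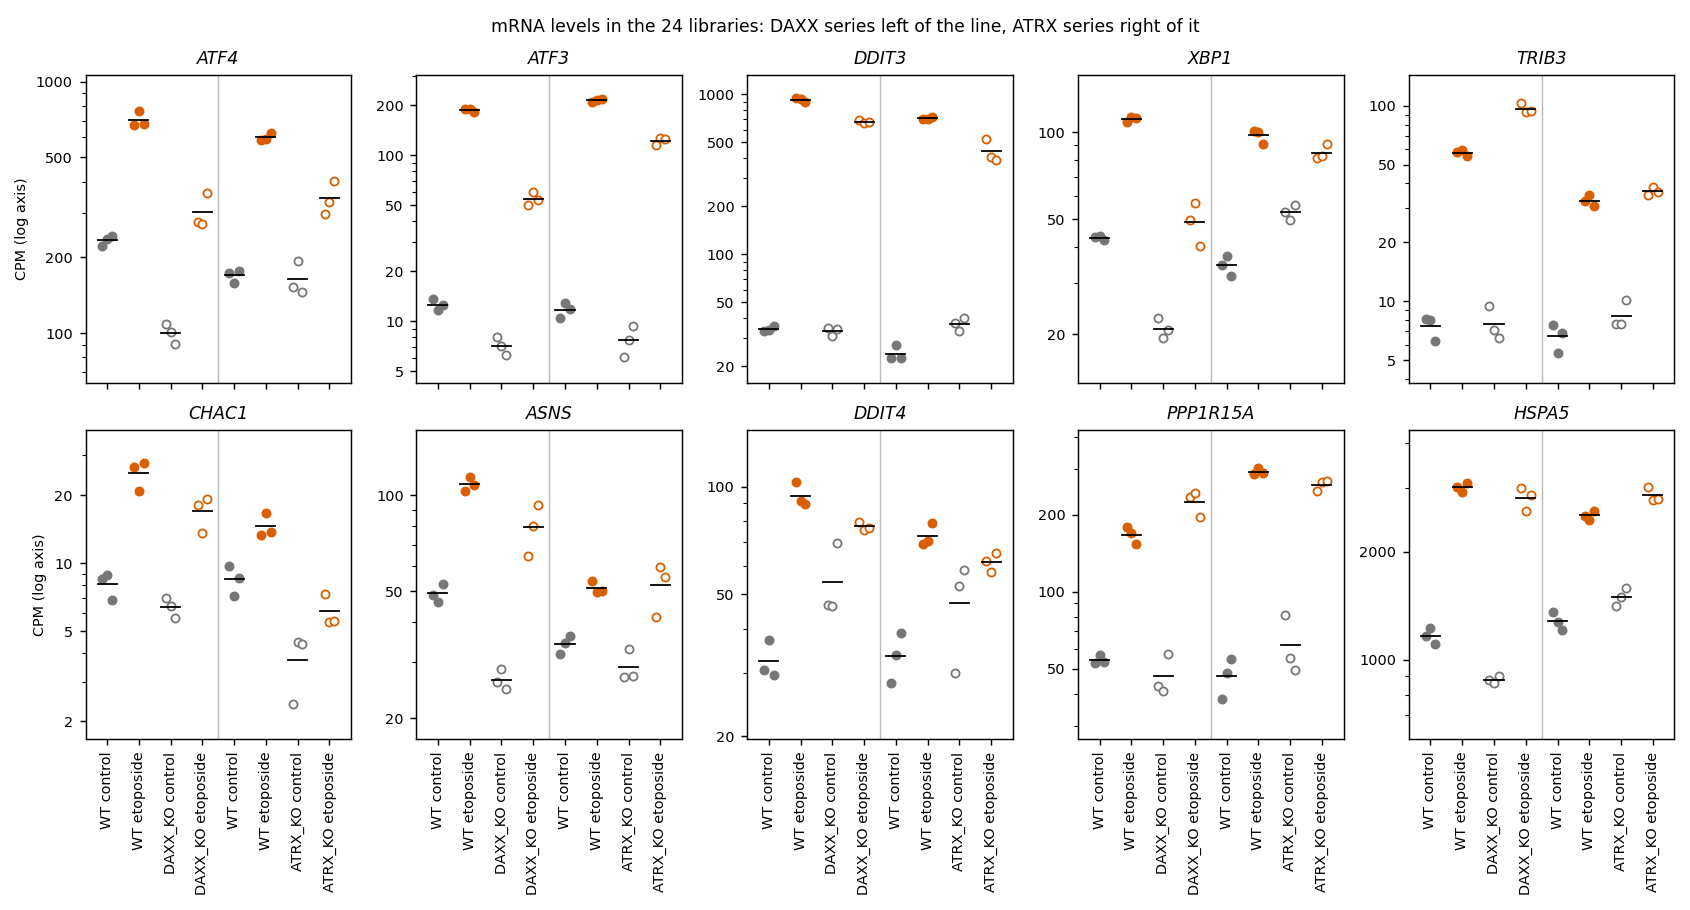
Level of the 10 members in the 24 libraries, in CPM on a log axis (each panel has its own range); filled points are WT, open points the knockout, grey control, orange etoposide, and bars are group means. Etoposide libraries lie above control libraries in every panel for WT, and DDIT4 in ATRX_KO is the 1 case where the ranges meet.

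Among the transcription factors, DDIT3 (CHOP, a C/EBP family factor that ATF4 induces and that promotes cell death) moved most. It stood at 33.0, 33.4 and 35.7 CPM in the control WT libraries of the DAXX series and at 949, 929.9 and 899 CPM with etoposide. The ATRX series gave 22.4, 27.0 and 22.4 CPM and then 702, 696 and 723 CPM. These are log2 fold changes of 4.78 (SE 0.065, edgeR adjusted p = 1.82e-20) and 4.91 (SE 0.11, edgeR adjusted p = 1.33e-14). DDIT3 (chr12:57910371-57915520 on GRCh37, minus strand) overlaps MARS1 and MBD6 on the opposite strand, and whether the counting used strand was not stated. MARS1 and MBD6 had at most 1050 and 993 counts in a library, where DDIT3 had 266 to 327 counts in the control WT libraries and 6619 to 7802 in the WT libraries with etoposide. Its control counts were thus below their highest counts, and whether reads of theirs entered the count of DDIT3, and so its fold changes, was not tested. ATF3, an early stress factor that represses or activates with its partners, went from 13.5, 11.7 and 12.6 to 190.3, 188 and 180.3 CPM in the DAXX and from 10.5, 12.9 and 11.8 to 209.7, 214 and 218 CPM in the ATRX series. Its libraries were tight within each group, and the log2 fold changes were 3.90 (SE 0.098, edgeR adjusted p = 5.34e-17) and 4.21 (SE 0.11, edgeR adjusted p = 2.02e-14). ATF4, the hub of the pathway, was at 221, 237 and 243 CPM in control and 676, 763 and 681 CPM with etoposide in the DAXX series, and at 174, 158 and 177 and 588, 593 and 622 CPM in the ATRX series. Its mRNA rose by 1.61 (SE 0.094, edgeR adjusted p = 2.19e-11) and 1.85 (SE 0.11, edgeR adjusted p = 3.19e-10) on the log2 scale, a smaller change than that of DDIT3 and ATF3. XBP1, whose spliced form drives chaperone and degradation genes, went from 43.3, 43.7 and 42.2 to 108, 113 and 112 CPM and from 34.7, 37.4 and 31.8 to 101, 100.4 and 90.9 CPM, log2 fold changes of 1.38 (SE 0.095, edgeR adjusted p = 2.06e-10) and 1.51 (SE 0.087, edgeR adjusted p = 1.86e-10).

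The targets of ATF4 rose over a wider range. TRIB3, a pseudokinase that feeds back on ATF4 and CHOP, was at 8.08, 7.97 and 6.24 CPM in control WT of the DAXX series and 57.8, 59.4 and 55.3 CPM with etoposide, and at 7.53, 5.44 and 6.90 and 32.4, 34.9 and 30.8 CPM in the ATRX series. The treated level was higher in the DAXX series than in the ATRX series in every library, and the log2 fold changes were 2.96 (SE 0.13, edgeR adjusted p = 6.5e-14) and 2.32 (SE 0.14, edgeR adjusted p = 2.15e-10). CHAC1, an enzyme that breaks down glutathione, had low counts and went from 8.48, 8.91 and 6.85 to 26.6, 20.9 and 27.7 CPM and from 9.76, 7.20 and 8.58 to 13.3, 16.7 and 13.7 CPM. It rose by 1.64 (SE 0.16, edgeR adjusted p = 3.86e-08) and 0.80 (SE 0.20, edgeR adjusted p = 0.002) on the log2 scale. ASNS, which makes asparagine, was at 48.6, 46.3 and 52.8 CPM and then 103, 115 and 108 CPM in the DAXX series, and at 31.8, 34.3 and 36.3 and then 54.0, 49.7 and 50.1 CPM in the ATRX series. With log2 fold changes of 1.16 (SE 0.11, edgeR adjusted p = 1.38e-08) and 0.61 (SE 0.12, edgeR adjusted p = 0.000311) it had the smallest response of the members in WT of both series. DDIT4 (REDD1, an inhibitor of mTORC1) went from 30.6, 37.3 and 29.7 to 103, 90.8 and 89.5 CPM and from 28.1, 33.8 and 38.8 to 69.1, 70.6 and 79.0 CPM, log2 fold changes of 1.55 (SE 0.13, edgeR adjusted p = 2.87e-09) and 1.14 (SE 0.17, edgeR adjusted p = 2.1e-05).

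PPP1R15A (GADD34, which brings protein phosphatase 1 to eIF2) was at 52.6, 56.6 and 53.2 CPM in control WT and 178, 169 and 153 CPM with etoposide in the DAXX series, and at 38.1, 48.0 and 54.6 and 288, 305 and 290.3 CPM in the ATRX series. The log2 fold changes were 1.64 (SE 0.11, edgeR adjusted p = 7.98e-11) and 2.67 (SE 0.15, edgeR adjusted p = 1.43e-10), and the treated libraries of the ATRX series all stood above those of the DAXX series. HSPA5 (BiP), the main chaperone of the endoplasmic reticulum (ER), went from 1164, 1224 and 1108 to 3016, 2936 and 3109 CPM in the DAXX and from 1357, 1275 and 1213 to 2510.1, 2454 and 2598 CPM in the ATRX series. It rose by 1.39 (SE 0.059, edgeR adjusted p = 2.02e-13) and 1.00 (SE 0.069, edgeR adjusted p = 1.95e-09) on the log2 scale. All 10 calls in WT of each series held in each alternative that was run.

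DAXX_KO against WT in control cells asked how the mRNAs of the pathway stood at rest without DAXX. In DAXX_KO 5 members were lower (ATF4, XBP1, ASNS, ATF3 and HSPA5), DDIT4 was higher, and DDIT3, TRIB3, CHAC1 and PPP1R15A did not pass the test. That is 6 of 10 called, beside 53.4% of all genes called in either direction, 26.6% lower and 26.7% higher, so that the number of members called was near that background. The median of the members was -0.37 on the log2 scale, beside 0.02 over all genes.

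ATF4 was at 108, 101 and 90.3 CPM in the control DAXX_KO libraries, below all 3 WT libraries of that series. It fell to 0.427 of the WT level, a log2 fold change of -1.23 (SE 0.099, edgeR adjusted p = 4.38e-09). XBP1 stood at 22.7, 19.3 and 20.7 CPM, again with no overlap with WT, and changed by -1.04 (SE 0.11, edgeR adjusted p = 1.54e-07). ASNS was at 26.0, 28.4 and 24.6 CPM and changed by -0.90 (SE 0.12, edgeR adjusted p = 2.68e-06), and ATF3 was at 8.02, 7.11 and 6.24 CPM and changed by -0.83 (SE 0.13, edgeR adjusted p = 2.65e-05). Both genes lay below WT in all 3 libraries. HSPA5 fell less, to 879, 861 and 901 CPM, -0.40 (SE 0.059, edgeR adjusted p = 1.11e-05), and the change was -0.22 under scaling by library totals. DDIT4 alone was higher, at 46.6, 46.4 and 69.6 CPM, with replicate 3 well above the other two, and changed by 0.74 (SE 0.13, edgeR adjusted p = 8.79e-05). These 6 groups did not overlap with WT, which held for 56.9% of all genes.

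For the other 4 members the DAXX_KO and WT libraries overlapped. DDIT3 was at 34.8, 31.0 and 34.3 CPM, a log2 difference of -0.03 (95% interval -0.18 to 0.13, edgeR adjusted p = 0.784). TRIB3 was at 9.42, 7.11 and 6.48 CPM, a difference of 0.04 (95% interval -0.29 to 0.37, edgeR adjusted p = 0.852). CHAC1 was at 7.0, 6.44 and 5.75 CPM and PPP1R15A at 42.8, 40.8 and 56.9 CPM, differences of -0.34 (95% interval -0.74 to 0.06, edgeR adjusted p = 0.145) and -0.21 (95% interval -0.44 to 0.03, edgeR adjusted p = 0.137). Without replicate 3 of control DAXX_KO, where PPP1R15A was highest, its difference was -0.37 (edgeR adjusted p = 0.0069) and passed the test, as it did with no filter on low counts (-0.23, edgeR adjusted p = 0.0426).

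**Figure D2:**
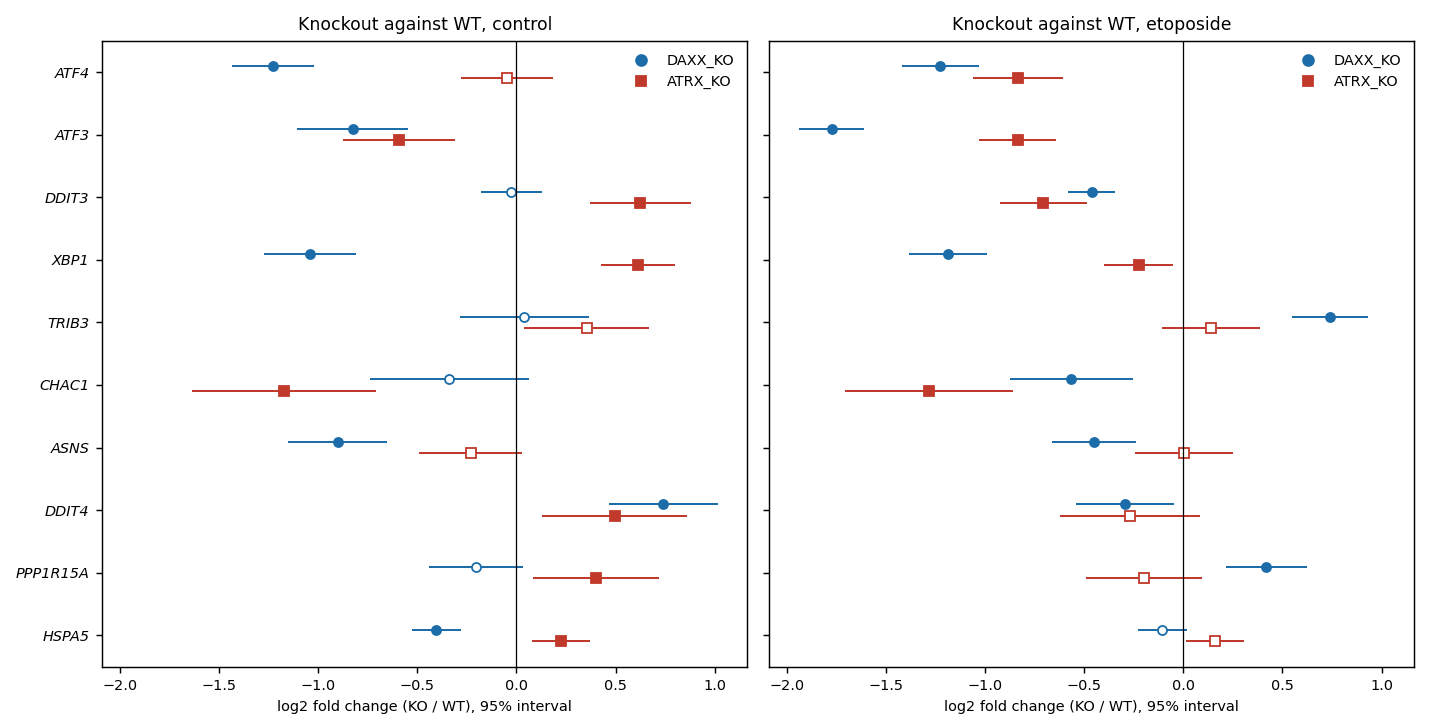
Log2 fold change of knockout against WT for the 10 members, in control cells on the left and with etoposide on the right; circles are DAXX_KO, squares ATRX_KO, bars 95% intervals, and filled symbols passed FDR 5%. In control cells XBP1 lies at -1.04 in DAXX_KO and 0.61 in ATRX_KO, while with etoposide ATF4, ATF3, DDIT3, CHAC1 and XBP1 lie below 0 in both.

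The same comparison in the ATRX series gave another set of calls. In control ATRX_KO cells DDIT3, XBP1, DDIT4, PPP1R15A and HSPA5 were higher, CHAC1 and ATF3 were lower, and ATF4, ASNS and TRIB3 did not pass the test. With 7 of 10 called, 5 higher and 2 lower, this stands beside 41.8% of all genes called, 20.8% higher and 21% lower. The median of the members was 0.29, beside 0.02 over all genes. Between the 2 series, which share no library, ATF3 was lower and DDIT4 higher in both knockouts, and XBP1 and HSPA5 were called in opposite directions.

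XBP1 stood at 53.0, 49.6 and 56.0 CPM in control ATRX_KO, above all 3 WT libraries, and changed by 0.61 (SE 0.088, edgeR adjusted p = 2.79e-05). DDIT3 was at 37.2, 33.3 and 39.8 CPM, also above WT throughout, and changed by 0.63 (SE 0.12, edgeR adjusted p = 0.000501). CHAC1 was at 2.39, 4.47 and 4.39 CPM, lowest in replicate 1 and below WT in all, and changed by -1.17 (SE 0.22, edgeR adjusted p = 0.000347). ATF3 was at 6.07, 7.70 and 9.41 CPM, below WT in all 3, a change of -0.59 (SE 0.13, edgeR adjusted p = 0.00175). HSPA5 was at 1411, 1490.1 and 1584 CPM, 0.23 (SE 0.069, edgeR adjusted p = 0.0141), and its call was lost without replicate 2 or 3 of control WT or replicate 3 of control ATRX_KO (0.18 to 0.22, edgeR adjusted p = 0.051 to 0.0893).

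The calls of DDIT4 and PPP1R15A were lost without single libraries. DDIT4 was at 30.2, 52.5 and 58.5 CPM, with replicate 1 inside the WT range, and changed by 0.50 (SE 0.17, edgeR adjusted p = 0.0303). Its call was lost without replicate 1 or 2 of control WT or replicate 2 or 3 of control ATRX_KO, and when the control groups alone were fitted, and the value without replicate 3 of control ATRX_KO was 0.31 (edgeR adjusted p = 0.162). PPP1R15A was at 81.0, 55.0 and 49.3 CPM, high in replicate 1, and changed by 0.40 (SE 0.15, edgeR adjusted p = 0.0402). Without that replicate the change was 0.16 (edgeR adjusted p = 0.295), and without any of 6 others (replicates 1 and 2 of control WT, all 3 of WT with etoposide and replicate 2 of ATRX_KO with etoposide) it was 0.28 to 0.42 and did not pass. Nor did it pass when the control groups alone were fitted (0.39, edgeR adjusted p = 0.0939). Leaving out replicate 2 of control WT left 4 of the 7 calls.

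Of the members not called, ATF4 was at 152, 193 and 146 CPM, across the WT range, a difference of -0.05 (95% interval -0.28 to 0.19, edgeR adjusted p = 0.774). ASNS was at 26.8, 33.0 and 27.0 CPM, -0.23 (95% interval -0.49 to 0.03, edgeR adjusted p = 0.145). TRIB3 was at 7.60, 7.61 and 10.1 CPM, just above WT in each library, 0.35 (95% interval 0.04 to 0.67, edgeR adjusted p = 0.0665), and passed without replicate 1 of control WT (0.47, edgeR adjusted p = 0.0392) and under scaling by library totals (0.41, edgeR adjusted p = 0.0363). Groups did not overlap for 6 members (ATF3, CHAC1, DDIT3, HSPA5, XBP1 and TRIB3) and for 50.4% of all genes.

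Etoposide against control in the knockouts, set against the response of WT, asked whether the pathway answered as strongly without DAXX or ATRX. All 10 members rose in DAXX_KO, where 54.5% of genes were called and 26.8% were higher, and 9 of 10 rose in ATRX_KO, where 49.5% were called and 24.3% were higher. The median of the members was 1.65 in DAXX_KO and 0.99 in ATRX_KO, beside -0.00 and 0.03 over all genes. The interaction, the log2 response of the knockout minus that of its WT, was called for 6 members in DAXX_KO, 3 lower (DDIT4, ATF3 and DDIT3) and 3 higher (TRIB3, PPP1R15A and HSPA5), beside 14.2% of all genes, 5.79% lower and 8.38% higher. In ATRX_KO it was called for 4 members, all lower (DDIT3, XBP1, ATF4 and DDIT4), beside 16% of all genes, 7.64% lower and 8.36% higher. The median interaction of the members was -0.07 in DAXX_KO and -0.42 in ATRX_KO, beside 0.02 and -0.01 over all genes.

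**Figure D3:**
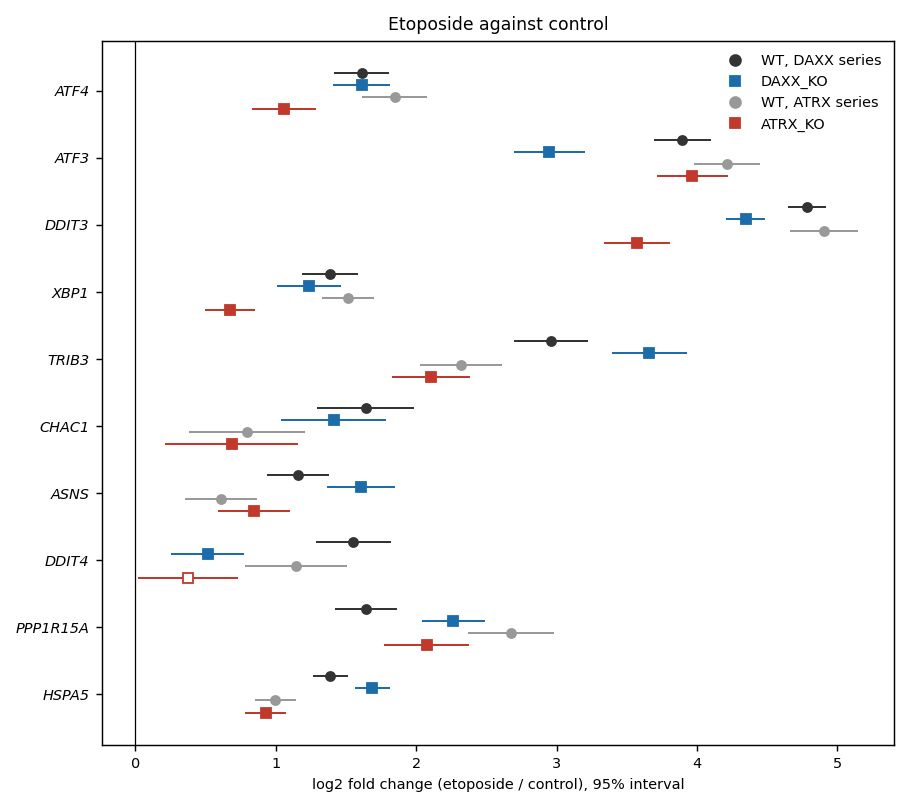
Log2 fold change of etoposide against control for each member in WT and knockout of each series, with 95% intervals. Circles are WT and squares knockouts, and the open square (DDIT4 in ATRX_KO) did not pass FDR 5%. DDIT3 runs from 3.57 in ATRX_KO to 4.91 in WT of its series, and TRIB3 from 2.10 to 3.66.

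DDIT3 responded less in both knockouts. In DAXX_KO it stood at 689, 666 and 671 CPM with etoposide, a response of 4.35 (SE 0.066, edgeR adjusted p = 9.03e-20), and in ATRX_KO at 528, 406 and 389 CPM, 3.57 (SE 0.11, edgeR adjusted p = 4.67e-13). The response was 20.3-fold against 27.5-fold in WT of the DAXX series, and 11.9-fold against 30.0-fold in the ATRX series. The interaction was -0.44 (SE 0.093, edgeR adjusted p = 0.00345) in DAXX_KO and -1.33 (SE 0.16, edgeR adjusted p = 4.9e-05) in ATRX_KO. DDIT4 also responded less in both. With etoposide it was at 79.7, 75.7 and 76.5 CPM in DAXX_KO and 61.8, 57.8 and 65.3 CPM in ATRX_KO, responses of 0.52 (SE 0.12, edgeR adjusted p = 0.00147) and 0.38 (edgeR adjusted p = 0.0732). The interaction of DDIT4 was -1.04 (SE 0.18, edgeR adjusted p = 0.00055) in DAXX_KO and -0.76 (SE 0.24, edgeR adjusted p = 0.0397) in ATRX_KO, where its control libraries were spread widely. In ATRX_KO that interaction ran from -0.77 to -0.58 and did not pass (edgeR adjusted p = 0.0541 to 0.113) when any of 9 libraries was left out: replicates 1 and 2 of control WT, all 3 of WT with etoposide, replicates 2 and 3 of control ATRX_KO, and replicates 1 and 2 of ATRX_KO with etoposide. The response of DDIT4 in ATRX_KO passed, at 0.56 (edgeR adjusted p = 0.0121), without replicate 3 of control ATRX_KO, and was 0.13 (edgeR adjusted p = 0.37) without replicate 1 of that group. It also passed with DESeq2, library totals, either other filter and all 24 libraries in one model.

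ATF3 responded less in DAXX_KO. Its libraries there read 50.1, 60.2 and 53.5 CPM with etoposide, 7.71-fold over control, where WT rose 14.9-fold. The interaction was -0.95 (SE 0.16, edgeR adjusted p = 0.000415). In ATRX_KO the libraries read 115, 126 and 126 CPM, a response of 3.97 (SE 0.12, edgeR adjusted p = 1.36e-13), and the interaction was -0.25 (95% interval -0.59 to 0.10, edgeR adjusted p = 0.34). For ATF4 and XBP1 the interaction passed in ATRX_KO and not in DAXX_KO, and the difference between the series did not itself pass. ATF4 was at 277, 272 and 361 CPM in DAXX_KO with etoposide, a response of 1.61 on the log2 scale, beside 1.61 in WT. In ATRX_KO it was at 296, 334 and 401 CPM, a response of 1.06 against 1.85 in WT, and the interaction was -0.79 (SE 0.15, edgeR adjusted p = 0.00248). The interaction of ATF4 in DAXX_KO was -0.00 (95% interval -0.28 to 0.28, edgeR adjusted p = 1.00). XBP1 was at 49.5, 57.0 and 40.4 CPM in DAXX_KO and 81.5, 82.4 and 90.8 CPM in ATRX_KO with etoposide, responses of 1.24 (SE 0.11, edgeR adjusted p = 1.17e-08) and 0.67 (SE 0.085, edgeR adjusted p = 4.88e-06). Its interaction was -0.15 (95% interval -0.45 to 0.16, edgeR adjusted p = 0.56) in DAXX_KO and -0.84 (SE 0.12, edgeR adjusted p = 0.000239) in ATRX_KO.

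TRIB3, PPP1R15A and HSPA5 responded more in DAXX_KO than in its WT. TRIB3 reached 103, 93.2 and 93.5 CPM, above every other library measured, a response of 3.66 (SE 0.13, edgeR adjusted p = 4.55e-15). The interaction was 0.70 (SE 0.18, edgeR adjusted p = 0.0125), and 0.63 (edgeR adjusted p = 0.0567) without replicate 1 of control WT. PPP1R15A reached 235, 243 and 196 CPM, a response of 2.26 (SE 0.11, edgeR adjusted p = 1.47e-12) and an interaction of 0.62 (SE 0.15, edgeR adjusted p = 0.00793). HSPA5 reached 2999.9, 2596 and 2865 CPM, a response of 1.69 (SE 0.059, edgeR adjusted p = 2.33e-14) and an interaction of 0.30 (SE 0.084, edgeR adjusted p = 0.0214). The call for HSPA5 was lost under scaling by library totals (0.19, edgeR adjusted p = 0.157) and without replicate 2 of control WT, of WT with etoposide or of control DAXX_KO, or replicate 1 of DAXX_KO with etoposide (0.26 to 0.28, edgeR adjusted p = 0.0561 to 0.0707). In ATRX_KO, TRIB3 was at 35.1, 38.6 and 36.2 CPM, PPP1R15A at 248, 267 and 270.4 CPM and HSPA5 at 3029, 2778 and 2797 CPM with etoposide. Their interactions there were -0.22 (95% interval -0.62 to 0.18, edgeR adjusted p = 0.483), -0.60 (95% interval -1.03 to -0.17, edgeR adjusted p = 0.0557) and -0.07 (95% interval -0.27 to 0.14, edgeR adjusted p = 0.695). That of PPP1R15A passed, at -0.74 to -0.67 (edgeR adjusted p = 0.0107 to 0.0462), without replicate 3 of control WT or replicate 2 or 3 of control ATRX_KO, and was -0.36 (edgeR adjusted p = 0.138) without replicate 1 of control ATRX_KO. It also passed with DESeq2, with either other filter and with all 24 libraries in one model.

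For ASNS and CHAC1 the interaction did not pass in either series. ASNS was at 64.8, 80.3 and 93.6 CPM in DAXX_KO and 41.6, 59.6 and 55.6 CPM in ATRX_KO with etoposide, responses of 1.61 (SE 0.12, edgeR adjusted p = 6.51e-10) and 0.84 (SE 0.12, edgeR adjusted p = 1.95e-05). Its interactions were 0.45 (95% interval 0.12 to 0.78, edgeR adjusted p = 0.0621) and 0.23 (95% interval -0.13 to 0.59, edgeR adjusted p = 0.388). The first passed, at 0.58 (edgeR adjusted p = 0.00774), without replicate 1 of DAXX_KO with etoposide, the lowest library of that group, and also with DESeq2 (0.46, adjusted p = 0.0475) and with no filter on low counts (0.46, edgeR adjusted p = 0.0131). CHAC1 was at 18.1, 13.6 and 19.3 CPM and 7.34, 5.52 and 5.54 CPM, responses of 1.41 (SE 0.18, edgeR adjusted p = 1.17e-06) and 0.69 (SE 0.22, edgeR adjusted p = 0.0172), with interactions of -0.23 (95% interval -0.73 to 0.28, edgeR adjusted p = 0.603) and -0.11 (95% interval -0.74 to 0.52, edgeR adjusted p = 0.848). The response of CHAC1 in ATRX_KO did not pass without replicate 1 of control ATRX_KO (0.44, edgeR adjusted p = 0.0945) or replicate 1 of ATRX_KO with etoposide (0.54, edgeR adjusted p = 0.0758).

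**Figure D4:**
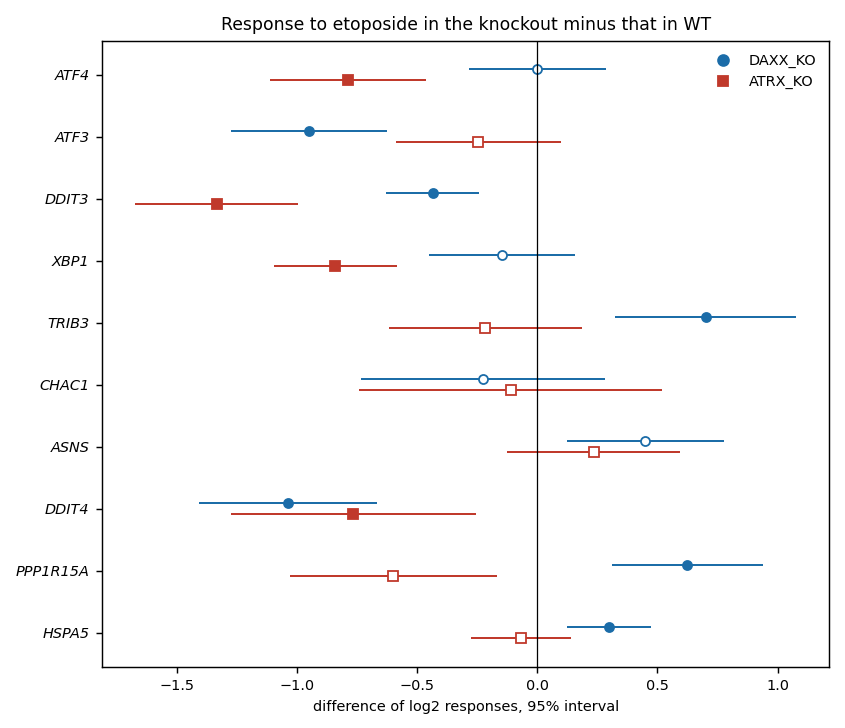
Interaction for each member, the log2 response of the knockout to etoposide less the response of WT of the same series, with 95% intervals; circles are DAXX_KO, squares ATRX_KO, and filled symbols passed FDR 5%. DDIT3 and DDIT4 lie below 0 in both, while PPP1R15A lies at 0.62 in DAXX_KO and -0.60 in ATRX_KO.

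Knockout against WT with etoposide compared the levels that the lines reached. In DAXX_KO 7 members were lower and 2 higher than in WT, beside 53% of all genes called, 25.2% lower and 27.9% higher. In ATRX_KO 5 were lower and none higher, beside 45.9% called, 22.9% lower and 23% higher. ATF3, ATF4, CHAC1, DDIT3 and XBP1 were lower in both knockouts, and the medians of the members were -0.46 and -0.25, beside 0.01 and 0.01 over all genes.

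ATF3 differed most in DAXX_KO, by -1.78 (SE 0.079, edgeR adjusted p = 1.66e-12) on the log2 scale, and by -0.84 (SE 0.093, edgeR adjusted p = 1.51e-06) in ATRX_KO. ATF4 was lower in both, with log2 differences of -1.23 (SE 0.093, edgeR adjusted p = 2.47e-09) and -0.83 (SE 0.11, edgeR adjusted p = 8.41e-06), as was DDIT3, with -0.46 (SE 0.056, edgeR adjusted p = 1.17e-06) and -0.71 (SE 0.10, edgeR adjusted p = 3.17e-05). CHAC1 differed by -0.57 (SE 0.15, edgeR adjusted p = 0.00325) and -1.28 (SE 0.20, edgeR adjusted p = 5.87e-05), at levels of 17.0 ± 3.02 and 6.13 ± 1.04 CPM (mean ± SD, n = 3) in the knockouts. XBP1 differed by -1.19 (SE 0.094, edgeR adjusted p = 3.75e-09) in DAXX_KO and -0.23 (SE 0.083, edgeR adjusted p = 0.0348) in ATRX_KO. This last call was lost without replicate 1 or 2 of WT or of ATRX_KO with etoposide (-0.20 to -0.17, edgeR adjusted p = 0.0899 to 0.171) under scaling by library totals (-0.13), with no filter on low counts and with all 24 libraries in one model. ASNS was lower in DAXX_KO, -0.45 (SE 0.10, edgeR adjusted p = 0.000973), and in ATRX_KO the difference was 0.00 (95% interval -0.25 to 0.25, edgeR adjusted p = 0.987). TRIB3 and PPP1R15A were higher in DAXX_KO, by 0.74 (SE 0.091, edgeR adjusted p = 1.28e-06) and 0.42 (SE 0.098, edgeR adjusted p = 0.00134), and in ATRX_KO their differences were 0.14 (95% interval -0.11 to 0.39, edgeR adjusted p = 0.359) and -0.20 (95% interval -0.49 to 0.10, edgeR adjusted p = 0.266).

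DDIT4 was lower in DAXX_KO, at -0.30 (SE 0.12, edgeR adjusted p = 0.0436), and the call was lost when any of the 6 libraries with etoposide of that series was left out (-0.33 to -0.23, edgeR adjusted p = 0.0556 to 0.179), under scaling by library totals and with all 24 libraries in one model. In ATRX_KO the difference of DDIT4 was -0.27 (95% interval -0.62 to 0.08, edgeR adjusted p = 0.202), and it passed without replicate 1 of control ATRX_KO, with no filter on low counts and when the groups with etoposide alone were fitted (-0.27 to -0.26, edgeR adjusted p = 0.0214 to 0.0441). The difference of PPP1R15A in ATRX_KO also passed in that fit of 2 groups (-0.19, edgeR adjusted p = 0.0411). HSPA5 did not pass in either knockout, with differences of -0.11 (95% interval -0.23 to 0.02, edgeR adjusted p = 0.139) and 0.16 (95% interval 0.01 to 0.30, edgeR adjusted p = 0.0695). In ATRX_KO it passed under scaling by library totals (0.26, edgeR adjusted p = 0.00446), with all 24 libraries in one model (0.19, edgeR adjusted p = 0.0154) and with DESeq2 (0.16, adjusted p = 0.0455). The ranges of WT and knockout with etoposide did not meet for 9 of 10 members in each series, HSPA5 in the DAXX and ASNS in the ATRX series being the exceptions, beside 55.7% and 54.6% of all genes.

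The differences between the 2 series were tested in 1 model over all 24 libraries. Each knockout was in 1 series with WT libraries of its own. In these differences the gene, the clone and the series therefore cannot be told apart. The knockout effect in control cells differed for 7 members, 6 lower and 1 higher in DAXX_KO than in ATRX_KO, beside 34.1% of all genes called, 17.2% lower and 17% higher. XBP1 differed most, by -1.65 (SE 0.14, edgeR adjusted p = 8.76e-10), followed by ATF4 at -1.18 (SE 0.16, edgeR adjusted p = 1.69e-06). ASNS, DDIT3 and HSPA5 differed by -0.67 (SE 0.18, edgeR adjusted p = 0.0051), -0.65 (SE 0.15, edgeR adjusted p = 0.00102) and -0.63 (SE 0.088, edgeR adjusted p = 3.17e-06). PPP1R15A differed by -0.60 (SE 0.21, edgeR adjusted p = 0.0243) and CHAC1, in the other direction, by 0.84 (SE 0.30, edgeR adjusted p = 0.0303). The difference for PPP1R15A did not pass without replicate 1 or 2 of control DAXX_KO, replicate 1 of control WT of the ATRX series or replicate 1 of control ATRX_KO (-0.54 to -0.38), nor under scaling by library totals. That for CHAC1 did not pass without replicate 3 of control WT or replicate 1 or 2 of control DAXX_KO in the DAXX series, or replicate 1 or 3 of control WT or replicate 1 of control ATRX_KO in the ATRX series (0.59 to 0.83). For ATF3, DDIT4 and TRIB3 the differences were -0.23 (95% interval -0.63 to 0.16, edgeR adjusted p = 0.381), 0.25 (95% interval -0.25 to 0.75, edgeR adjusted p = 0.474) and -0.31 (95% interval -0.76 to 0.13, edgeR adjusted p = 0.293).

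The interaction differed between the series for DDIT3, by 0.88 (SE 0.19, edgeR adjusted p = 0.00935), and for PPP1R15A, by 1.20 (SE 0.28, edgeR adjusted p = 0.0141), 2 of 10 members and both higher, beside 3% of all genes, 1.92% higher and 1.08% lower. XBP1, ATF4, TRIB3 and ATF3 lay near the threshold, at 0.67 (95% interval 0.27 to 1.06, edgeR adjusted p = 0.0543), 0.76 (95% interval 0.31 to 1.22, edgeR adjusted p = 0.057), 0.89 (95% interval 0.36 to 1.43, edgeR adjusted p = 0.0592) and -0.73 (95% interval -1.19 to -0.26, edgeR adjusted p = 0.0813). Each of these 4 passed with DESeq2, which called 6 members, and in 2 to 7 of the fits that left out 1 library. For HSPA5, ASNS, DDIT4 and CHAC1 the differences were 0.34 (95% interval 0.09 to 0.60, edgeR adjusted p = 0.142), 0.19 (95% interval -0.31 to 0.69, edgeR adjusted p = 0.755), -0.29 (95% interval -0.98 to 0.39, edgeR adjusted p = 0.714) and -0.14 (95% interval -0.94 to 0.67, edgeR adjusted p = 0.91). The response of WT itself differed between the series for PPP1R15A, by -1.03 (SE 0.20, edgeR adjusted p = 0.00425), and for HSPA5, by 0.40 (SE 0.088, edgeR adjusted p = 0.0112), beside 3.15% of all genes, 1.42% higher and 1.73% lower. For PPP1R15A, the WT of the DAXX series thus had the smaller response, and its interaction the higher value. TRIB3, CHAC1 and ASNS were near the threshold, with differences in the WT response of 0.65 (95% interval 0.26 to 1.03, edgeR adjusted p = 0.0543), 0.85 (95% interval 0.32 to 1.39, edgeR adjusted p = 0.0691) and 0.55 (95% interval 0.20 to 0.90, edgeR adjusted p = 0.0726), and passed with DESeq2, which called 5 members, and in 9, 3 and 4 of the fits that left out 1 library. The differences in WT response of ATF3, ATF4, DDIT3, DDIT4 and XBP1 were -0.31, -0.23, -0.12, 0.42 and -0.12 (edgeR adjusted p = 0.293 to 0.721).

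Levels over the 8 groups were then set in order, in CPM as mean ± SD with n = 3, without a test. ATF4 was highest in WT of the DAXX series with etoposide, at 706 ± 49.0, followed by WT of the ATRX series at 601 ± 18.8. ATRX_KO and DAXX_KO with etoposide came next, at 344 ± 52.9 and 303 ± 50.1, with ranges that overlapped. Control WT of the DAXX series followed at 234 ± 11.2, then control WT and control ATRX_KO of the ATRX series at 169.6 ± 9.81 and 164 ± 25.5, which overlapped, and control DAXX_KO was lowest at 99.8 ± 8.99. TRIB3 had another order, led by DAXX_KO with etoposide at 96.6 ± 5.67, then WT of that series at 57.5 ± 2.10, ATRX_KO at 36.6 ± 1.77 and its WT at 32.7 ± 2.05. The 4 control groups of TRIB3, from 8.44 ± 1.45 in ATRX_KO to 6.62 ± 1.07 in WT of that series, overlapped each with the next. XBP1 in control ATRX_KO, at 52.9 ± 3.24, overlapped with DAXX_KO with etoposide, at 48.9 ± 8.29. HSPA5 ran from 3021 ± 86.5 to 2520.4 ± 72.6 over the 4 groups with etoposide, each overlapping with the next.

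Across the 8 group means of log2 CPM, the 45 pairs of members had Pearson correlations from 0.47 (CHAC1 with XBP1) to 0.96 (DDIT3 with TRIB3), with a median of 0.81. The points share the split into control and etoposide libraries, so these values describe the groups and carry no test. Of 11039 genes with a mean of at least 5 CPM, those closest to DDIT3 were ZFYVE1, CDKN1A (p21, the cell cycle inhibitor that p53 induces) and ENSG00000260912, with r from 0.993 to 0.996. Closest to ATF4 were GYG1, KLHL12 and RPL12 (0.99 to 0.994), and closest to ATF3 were PREPL, CCDC32 and GOLPH3L (0.991 to 0.996). XBP1 was followed by MPI, LSG1 and MED10 (0.987 to 0.993), PPP1R15A by ALG11, ANKRD1 and LCE1B (0.99 to 0.993) and HSPA5 by NOP53, LNX2 and ZPR1 (0.983 to 0.99). Of the targets of ATF4, CHAC1 lay closest to NDUFB10, CARS1 and ENSG00000269246 (0.981 to 0.989), TRIB3 to CAMLG, GRIPAP1 and ATP6V1G1 (0.983 to 0.99), DDIT4 to YPEL3, ZFP90 and ENSG00000266401 (0.979 to 0.981) and ASNS to RNF181, FAHD2CP and C15orf40 (0.969 to 0.971). No member was among the 3 closest genes of another.

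The other genes of the pathway were described by 7 lists with 94 genes, of which 92 were tested in each series. Like the members, the lists were chosen with earlier results of these data known, and their counts carry no test. With etoposide, 43 were higher and 28 lower in WT of the DAXX series, and 40 and 27 in WT of the ATRX series, with medians of 0.19 and 0.09, beside 0.02 and 0.07 over all genes. Of all genes, 29.6% were higher and 30.6% lower in the DAXX series, and 31.7% and 29.8% in the ATRX series, so that the share of list genes that were lower was near that background. Regulators and stress effectors downstream of ATF4 and CHOP had 8 of 12 higher and 2 lower in WT of each series. GDF15, a secreted stress cytokine that p53 also induces, rose by 8.66 and 8.39 on the log2 scale, and the stress protein NUPR1 by 3.55 and 3.88. Aminoacyl-tRNA synthetases had 8 of 12 higher and 2 lower in WT of the DAXX series, and 8 and 1 in the ATRX series. SARS1 was at 1.34 and 1.49 and WARS1 at 1.22 and 1.32. Genes of amino acid synthesis and transport had 8 higher and 4 lower of 17 in the DAXX and 5 and 6 in the ATRX series. Both counts in the ATRX series, and the count lower in the DAXX series, were near the background of all genes. The transporters SLC1A4 (2.27 and 2.52) and SLC3A2 (2.10 and 2.38) were higher in both.

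Of 15 ER chaperones and folding enzymes, 5 were higher and 9 lower with etoposide in WT of the DAXX series and 5 and 7 in the ATRX series, with medians of -0.32 and -0.19. The background is again 29.6% of all genes higher and 30.6% lower, and 31.7% and 29.8%, and the counts of chaperones higher and of ER-associated degradation and the kinase, eIF2 and eIF2B list in either direction were near it. DNAJB9, a co-chaperone of HSPA5, rose by 1.43 and 1.95, and the disulfide isomerase PDIA4 changed by -1.05 and -1.08. ER-associated degradation had 6 higher and 4 lower of 15 and 5 and 3, with OS9 at 1.00 and 0.82 and HERPUD1 at 0.68 and 1.07. Among the sensors and their processing enzymes, 3 of 6 were higher and 2 lower in the DAXX series, and 4 and 2 in the ATRX series, the counts lower being near the background. ERN1, which encodes IRE1, rose by 2.10 and 2.91, while ATF6 changed by -0.64 and -0.37. The list of kinases, eIF2 and eIF2B had 5 higher and 5 lower of 15 and 5 and 6, with the eIF2B subunit EIF2B2 at 0.90 and 0.92 and the haem-regulated kinase EIF2AK1 at -0.76 and -0.86.

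In control cells, 14 of the 92 genes were higher and 46 lower in DAXX_KO, and 37 were higher and 19 lower in ATRX_KO, with medians of -0.22 and 0.12, beside 0.02 and 0.02 over all genes. Of all genes, 26.7% were higher and 26.6% lower in DAXX_KO, and 20.8% and 21% in ATRX_KO, where the share of list genes that were lower was near that background. In ATRX_KO so were the kinase, eIF2 and eIF2B list in either direction, and the synthetases, amino acid genes, regulators and degradation genes that were lower. In DAXX_KO the regulators and the degradation genes that were lower were near it too. Aminoacyl-tRNA synthetases had 9 of 12 lower and none higher in DAXX_KO, and 2 lower and 4 higher in ATRX_KO, with YARS1 lower in both, at -0.85 and -0.27. ER chaperones had 10 of 15 lower and none higher in DAXX_KO, and 7 higher and 2 lower in ATRX_KO, and CRELD2 was lower in both (-1.18 and -0.88). Of amino acid genes, 3 were higher and 9 lower in DAXX_KO and 7 and 4 in ATRX_KO, and the transporter SLC7A5 (-2.47 and -1.01) and the serine synthesis enzyme PSAT1 (-0.85 and -0.84) were lower in both. Regulators and stress effectors had 6 of 12 higher and 3 lower in DAXX_KO, and 8 and 2 in ATRX_KO, with GDF15 higher in both (2.03 and 2.72). Of the kinases, eIF2 and eIF2B, 1 was higher and 9 lower in DAXX_KO and 3 and 4 in ATRX_KO, with PPP1R15B, the constitutive partner of the eIF2 phosphatase, at -1.14 and -0.80 and the kinase EIF2AK1 at 0.96 and 0.58. RTCB, the ligase that joins spliced XBP1 mRNA, was lower in both (-1.62 and -1.02) and ATF6B, a relative of ATF6, higher in both (0.49 and 0.46), in a list with 2 higher and 1 lower in DAXX_KO and 2 and 2 in ATRX_KO. ER-associated degradation had 2 higher and 5 lower in DAXX_KO and 6 and 3 in ATRX_KO, with DERL2 lower in both (-0.54 and -0.91) and UBE2J1, a ubiquitin-conjugating enzyme of the ER, higher in both (0.29 and 0.62).

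**Figure D5:**
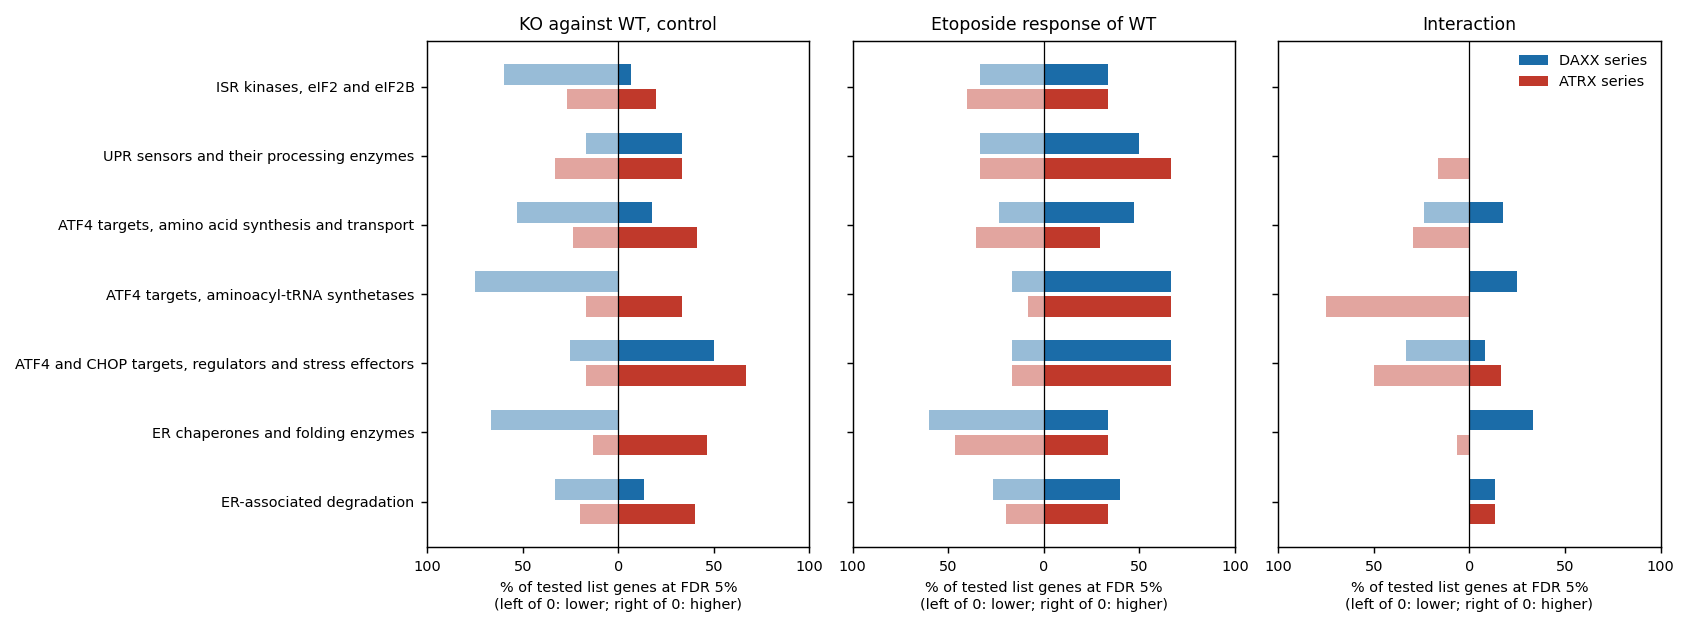
Percent of the tested genes of each of 7 pathway lists that passed FDR 5%, for knockout against WT in control cells, the etoposide response of WT, and the interaction; bars right of 0 (full colour) are genes that were higher and bars left of 0 (pale) genes that were lower, blue for the DAXX series and red for the ATRX series. In the interaction the tRNA synthetases lie to the right in the DAXX series (3 of 12) and to the left in the ATRX series (9 of 12).

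The interaction was called for 14 list genes higher and 8 lower in DAXX_KO, and for 4 higher and 22 lower in ATRX_KO, with medians of 0.06 and -0.09, beside 0.02 and -0.01 over all genes. Of all genes, 8.38% were higher and 5.79% lower in DAXX_KO, and 8.36% and 7.64% in ATRX_KO. The counts of chaperones lower in ATRX_KO, of regulators higher in DAXX_KO and of ER-associated degradation genes higher in both were near that background. The aminoacyl-tRNA synthetases had 3 higher and none lower in DAXX_KO and 9 lower and none higher in ATRX_KO, and the difference between the series was itself called for 8 of 12, where 3% of all genes were. ER chaperones had 5 higher in DAXX_KO, as HSPA5 was, and 1 lower in ATRX_KO, and the difference between the series was called for 1 of 15. Of regulators and stress effectors, 4 were lower and 1 higher in DAXX_KO and 6 and 2 in ATRX_KO, with GDF15 (-1.57 and -2.64) and NUPR1 (-0.998 and -1.78) lower in both. Amino acid genes had 3 higher and 4 lower in DAXX_KO and 5 lower in ATRX_KO, with SLC1A4 at -1.05 and -1.60 and the proline synthesis enzyme PYCR1 at -0.90 and -0.53. ER-associated degradation had 2 and 2 higher, VCP in both (0.27 and 0.45), and the other lists had at most 1 call.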

How the data were processed

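RNA was measured in 24 libraries of U87-T cells. The authors made QuantSeq 3′ mRNA libraries, read 75 bases from 1 end, used STAR for alignment and RSEM with Ensembl gene models (GRCh37) for quantification, and deposited the estimated counts as whole numbers for 57736 genes without normalization. The submitters' processing notes name RSEM 1.2.3. Whether the counting used strand was not stated. Gene symbols came from GENCODE release 44 placed on GRCh37, which matched 55501 gene IDs with 98.8% of the counts. Columns of no sample were 0.

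Library totals ran from 6928950 to 13298557, and 3 counts, the limit that a count of 0 allows, were 0.215 to 0.407 CPM, which covers counting error only. Replicates differed by more than counting error (chi-square per degree of freedom 2.16 to 17.1 over 24 pairs).

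Counts were fitted with edgeR 4.0.16 in R 4.3.3 (TMM scaling, factors 0.921 to 1.10 over all models, filterByExpr with a minimum count of 10 and total of 15). The 12 libraries of a series formed 1 quasi-likelihood model of 4 groups, with 15247 genes in the DAXX and 16371 in the ATRX series, and differences between the series came from 1 model of all 24 libraries with 16674 genes. The common biological coefficient of variation was 0.0825, 0.106 and 0.0960. P-values had a Benjamini-Hochberg adjustment over all genes tested, and calls were made at an FDR of 5%. SEs are those of the fitted coefficients scaled by the moderated dispersion, with 95% intervals from the t distribution. Alternatives were DESeq2 1.42.0, RLE size factors, library totals, no filter, at least 10 counts in every library, a replicate block, other sets of libraries in the model, and leaving out each library. The interaction test was also run on simulated data with known changes. There WT and knockout had the same control levels, unlike the lines here, so that run checks the calculation and not the calls made in these data.

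The 10 members and the 7 pathway lists were chosen with earlier results of these data known. Every comparison names all members. From each list, up to 2 genes were eligible for naming in each comparison, those called in the same direction in both series with the largest smaller change. For each member the 3 genes with the highest Pearson correlation over the 8 group means were named, among genes with a mean of at least 5 CPM. Promoter windows came from RefSeq on GRCh38.p14. Protein sequences and ChIP-seq or ATAC-seq data were not used here. Figures were drawn with matplotlib 3.10.9.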

Additional observations from a re-analysis of the deposited data

Results flagged for a closer look

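The response to etoposide differed between DAXX_KO and its WT for 6 members, by the interaction term of the edgeR model. The values on the log2 scale were -0.95 for ATF3, -0.44 for DDIT3, -1.04 for DDIT4, 0.70 for TRIB3, 0.30 for HSPA5 and 0.62 for PPP1R15A. Between ATRX_KO and its WT it differed for 4 members, by -0.79 for ATF4, -1.33 for DDIT3, -0.76 for DDIT4 and -0.84 for XBP1.

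The effect of the knockout in control cells differed between the DAXX series and the ATRX series for 7 members in the model of all libraries. The difference was -1.18 for ATF4, -0.65 for DDIT3, 0.84 for CHAC1, -0.67 for ASNS, -0.63 for HSPA5, -1.65 for XBP1 and -0.60 for PPP1R15A. The interaction differed between the series by 0.88 for DDIT3 and 1.20 for PPP1R15A, and the response of WT by 0.40 for HSPA5 and -1.03 for PPP1R15A. Groups of 3 libraries are too small for a test of single libraries that stand apart. The causes of these differences were not tested.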

How the results depend on the processing

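Among the log2 changes of the members, 118 of 130 kept their direction and their side of the threshold with DESeq2, 127 with RLE size factors, 120 with library totals, 118 with no filter on low counts, 125 with at least 10 counts in every library, 76 of 80 with only the groups compared and 94 of 100 with all 24 libraries in one model. With each library left out, 1806 of 1920 did, and no called value changed sign under any of these. Scaling by library totals shifted the median of all genes by 0.18 for DAXX_KO against WT in control cells, -0.11 for the response of DAXX_KO and -0.11 for its interaction.

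Changes of sign were limited to values that were not called. The interaction of ATF4 in DAXX_KO was 0.0128 with DESeq2, 0.0127 with RLE size factors, 0.00846 with no filter and 0.00783 with all 24 libraries in one model, and -0.14 to 0.0800 with a library left out. In control DAXX_KO, DDIT3 was 0.16 with library totals and -0.0575 to 0.0243 with a library left out, and TRIB3 was -0.14 to 0.16. In control ATRX_KO, ATF4 was 0.0130 with library totals and -0.18 to 0.0334 with a library left out. With a library left out, CHAC1 ranged from -0.35 to 0.0308 in the ATRX_KO interaction and from -0.26 to 0.11 in the difference of interactions, and DDIT4 from -0.0043 to 0.43 in the difference of knockout effects. ASNS in ATRX_KO with etoposide was -0.10 to 0.14 with a library left out.

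The number of members called moved by over 1.5 times in 3 comparisons. ATRX_KO against WT in control cells had 7 and, with a library left out, 4 to 7. The difference of interactions had 2 members called, 6 with DESeq2, 5 with no filter and 4 with at least 10 counts in every library, and 2 to 5 with a library left out. The difference of WT responses had 2, 5 with DESeq2 and 4 with no filter, and 2 to 5 with a library left out. Of the counts over the pathway lists, 1426 of 1536 stayed within 1.5 times, and 2863 of 3072 with a library left out. The causes of these changes were not tested.

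Replicate numbers did not pair the libraries. Deviations from group means of same-numbered libraries correlated at -0.0608 to 0.0511 in the DAXX and -0.209 to 0.0449 in the ATRX series, and 2 of 12 libraries in each correlated best with their own number. With a replicate block, 125 of 130 values kept direction and side. The calls of DDIT4 in DAXX_KO with etoposide, PPP1R15A in control ATRX_KO and XBP1 in ATRX_KO with etoposide were lost under the block (edgeR adjusted p = 0.0586, 0.0635 and 0.0567), DDIT4 in the response of ATRX_KO passed (edgeR adjusted p = 0.0234), and ASNS in ATRX_KO with etoposide was -0.0112.

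CHAC1 had the lowest counts of the members and the widest interval of an interaction, and whether depth limited its calls was not tested.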
